A study of Mus musculus with 4 samples.

Results

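Accessible chromatin at 42 genes of the cell cycle and of DNA replication was compared between wild-type (WT) and H3.3 conditional knockout (cKO) macrophages by ATAC-seq. In ATAC-seq the Tn5 transposase cuts open DNA, and places with many cuts are called as peaks. The 42 genes were a given list of cyclins, kinases, transcription factors, replication proteins and mitotic proteins, out of 21951 protein-coding genes in the mouse annotation. Every peak that overlapped a gene body or the 10 kb on either side of it was counted for that gene. The genes held 202 of the 71243 regions in which at least 1 library had a peak.

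The cells were bone marrow-derived macrophages (BMDMs), cultured from the marrow of mice with L929-conditioned medium, with 2 biological replicates per genotype. The labels give a culture of 6 to 8 days, and the libraries were made on a single day of that range. WT mice were H3f3a fl/fl H3f3b fl/fl without Cre, and cKO mice had the same floxed alleles and LysM cre/cre, so that both groups carried floxed genes for histone H3.3. Cre was driven by the Lyz2 (LysM) locus, which is active in myeloid cells, and the study's text describes the deletion of H3f3b as variable. The study used adult mice. In bulk libraries of this kind, fewer cells with an open site and less opening per cell cannot be told apart.

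A cell enters the cycle when D-type cyclins with Cdk4 and Cdk6 phosphorylate the retinoblastoma protein and so release E2F transcription factors. E2F target genes then supply the proteins that license replication origins, unwind and copy DNA, make deoxynucleotides and wrap the new DNA into chromatin. Genes of mitosis are switched on later, through FOXM1, MYBL2 and CHR elements. Bone marrow progenitors divide early in such cultures, whereas mature BMDMs divide little. H3.3 is the histone H3 variant that is placed into chromatin outside of replication, often at active genes.

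Each library had its own peak list, with 51955 to 64939 peaks. In both genotypes the list of replicate 2 was the longer one (64939 and 60884 peaks, against 55742 and 51955). Peak height is given here as the percentile of the peak area within the library's own list, where 100 is the largest peak. Because a longer list holds more small peaks, a percentile also carries the list's length, and 119 of 136 shared regions of the genes had the higher percentile in replicate 2 of WT and 118 of 136 in replicate 2 of cKO. Of 10 macrophage markers, 9 had a called promoter in all 4 libraries and Spi1, the gene of PU.1, had none. Of these 9, Csf1r, Mertk and Lyz2 were lower in both cKO libraries than in both WT libraries, Cd68 and Mpeg1 were higher, and 4 overlapped. Over all promoter regions called in the 4 libraries, 33.7% were lower and 20.8% higher in this sense. Csf1r, the receptor for the growth factor M-CSF, gave 73.7 and 85.3 in WT against 56.4 and 61.4 in cKO, and Mertk, a receptor for the uptake of dead cells, 89.3 and 92.8 against 73.9 and 79.1. The Lyz2 promoter, the locus of the Cre allele, stood at percentiles 96.1 and 99.0 in WT against 57.4 and 59.4 in cKO. No promoter of 5 T cell, 5 erythroid or 5 fibroblast markers was called. Of 5 B cell markers Ms4a1 was called in all 4 libraries and was higher in cKO (3.56 and 23.5 in WT against 28.5 and 35.5), and of 7 neutrophil markers S100a8 was, at percentiles of 76.5 and 78.3 in WT and, lower, of 50.3 and 64.0 for cKO. Ly6g, another neutrophil marker, had a promoter call at 30.3 and 17.8 in cKO and none in WT, and Camp in every library but cKO replicate 1. The part of these marker differences in the results was not tested.

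The promoters of both deleted genes kept their peaks. The main H3f3a promoter region had percentiles of 96.0 and 97.2 in WT against 93.4 and 94.1 in cKO. At H3f3b a region 173 bp inside the nearest start site had percentiles of 94.2 and 95.5 in WT against 87.0 and 81.4 in cKO. The region at the upstream H3f3b start site gave 23.7 and 34.3 in WT against 28.7 and 42.5 in cKO. A peak over an H3f3a exon (chr1:180811715-180812055) was called in both WT libraries, at percentiles of 5.02 and 19.1, and in neither cKO library. A peak list does not show which allele the reads came from.

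Promoters of the cell cycle genes were open in nearly every library of both genotypes, about as often as promoters of all genes. A promoter region was one that overlapped the stretch from 1 kb upstream to 100 bp downstream of an annotated transcription start site. All 42 genes had such a region, and 39 had one that was called in all 4 libraries. The genes had 46 promoter regions, with 41 (89.1%) called in all 4 libraries. Of the rest, 1 was gained (both cKO and neither WT library) and 0 were lost (both WT and neither cKO library). Over all 12289 promoter regions, 89.2% were called in all 4 libraries, 1.03% were gained and 1.86% were lost. The median promoter region of the 42 genes stood at percentile 90.3 over the 4 libraries and was 1259 bp wide, beside 83.7 and 1020 bp for all promoter regions called in all 4.

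**Figure D1:**
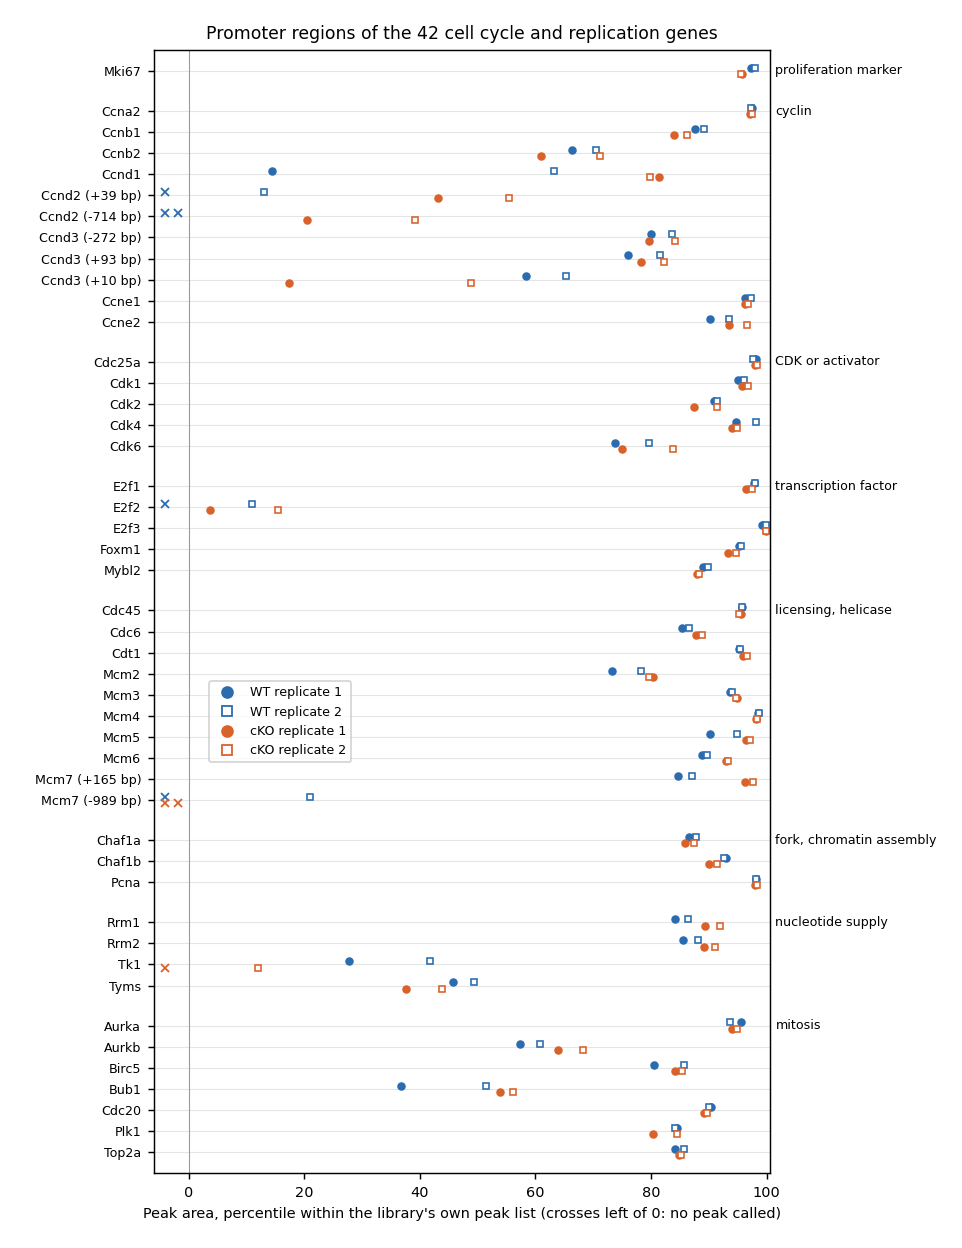
Percentile of peak area (x axis, 0 to 100) of each promoter region of the 42 genes (rows, grouped by role) in the WT (blue) and cKO (orange) libraries, filled circles for replicate 1 and open squares for replicate 2. Crosses left of 0 mark libraries without a call. Most rows sit at the right edge with the 4 libraries together, and the wide rows are Ccnd1, Ccnd2, Ccnd3, Tk1 and E2f2.

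Sequence elements known from promoters of cycling genes were looked for in the members' promoters. E2F words bind E2F proteins, CHR words the MuvB complex, CCAAT boxes NF-Y and GC boxes Sp-type factors. The RefSeq promoter table (build GRCm38.p6, the same as mm10), which gives the 250 bases before and 50 after a start site, had 39 promoters of 35 of the 42 genes, and Aurkb, Ccna2, Ccnd1, Ccnd2, Ccne2, Foxm1 and Mcm4 were not matched. Both strands were searched. An E2F word (TTCCCGC, the variant TTGGCGC, the variant TTCGCGC or the variant TTGCCGC) was in 18 of the 39, or 46.2%, beside 9.57% of all 32851 promoters of the table. A CHR word (TTTGAA or the variant TTCGAA) was in 13, or 33.3%, beside 19.2%. A CCAAT box (CCAAT) was in 26, or 66.7%, beside 37.4%, and a GC box (GGGCGG) in 33, or 84.6%, beside 35.7%. Among the 21262 protein-coding promoters the shares were 12.1% for E2F, 17.6% for CHR, 38.2% for CCAAT boxes and 46.2% for GC boxes. The median GC content was 58.7% for the 39 promoters, 52.7% for all and 56.3% for the protein-coding ones. Words of different elements can overlap, and a match is only a match of letters.

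Shown here are the 250 bases upstream of the RefSeq start site for 7 genes whose peak calls differed. These are Tk1, whose promoter call was missing in 1 library, and the genes with a gained or lost region and an entry in the table that had the largest promoter differences. For Mcm7, Cdk6 and Cdc6 the RefSeq start site lies 1156, 2408 and 350 bp inside the most upstream start in the GENCODE annotation that placed the regions. At Cdk6 and Cdc6 it is another annotated start, and at Mcm7 it is 552 bp downstream of the nearest one. Capitals mark E2F, CHR, CCAAT box and GC box words on either strand.
Mcm7 promoter (chr5:138171267-138171516, minus strand): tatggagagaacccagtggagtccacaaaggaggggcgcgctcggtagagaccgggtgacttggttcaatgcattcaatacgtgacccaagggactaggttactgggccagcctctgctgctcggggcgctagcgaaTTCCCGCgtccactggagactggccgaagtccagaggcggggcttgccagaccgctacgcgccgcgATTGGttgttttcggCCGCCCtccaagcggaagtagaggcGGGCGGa
Mcm5 promoter (chr8:75109259-75109508, plus strand): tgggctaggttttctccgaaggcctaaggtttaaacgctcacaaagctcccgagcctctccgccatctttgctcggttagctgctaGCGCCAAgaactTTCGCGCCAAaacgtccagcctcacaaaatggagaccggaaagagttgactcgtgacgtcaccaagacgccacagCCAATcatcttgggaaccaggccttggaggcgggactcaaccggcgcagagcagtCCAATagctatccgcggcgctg
Mki67 promoter (chr7:135716380-135716629, minus strand): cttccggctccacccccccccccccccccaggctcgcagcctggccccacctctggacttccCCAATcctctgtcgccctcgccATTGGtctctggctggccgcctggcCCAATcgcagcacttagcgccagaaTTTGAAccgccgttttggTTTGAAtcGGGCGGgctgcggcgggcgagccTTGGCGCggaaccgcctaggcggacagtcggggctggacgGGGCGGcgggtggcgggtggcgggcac
Tk1 promoter (chr11:117826015-117826264, minus strand): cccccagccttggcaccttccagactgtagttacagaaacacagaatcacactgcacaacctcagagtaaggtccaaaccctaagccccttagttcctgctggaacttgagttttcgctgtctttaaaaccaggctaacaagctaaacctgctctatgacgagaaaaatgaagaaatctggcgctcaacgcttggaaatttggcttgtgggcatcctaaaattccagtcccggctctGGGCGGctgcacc
Ccnd3 promoter (chr17:47504801-47505050, plus strand): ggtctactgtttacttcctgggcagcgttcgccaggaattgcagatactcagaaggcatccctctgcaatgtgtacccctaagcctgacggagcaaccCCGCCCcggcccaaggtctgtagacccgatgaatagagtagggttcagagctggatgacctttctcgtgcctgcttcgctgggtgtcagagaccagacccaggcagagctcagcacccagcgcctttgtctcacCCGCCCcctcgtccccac
Cdc6 promoter (chr11:98907901-98908150, plus strand): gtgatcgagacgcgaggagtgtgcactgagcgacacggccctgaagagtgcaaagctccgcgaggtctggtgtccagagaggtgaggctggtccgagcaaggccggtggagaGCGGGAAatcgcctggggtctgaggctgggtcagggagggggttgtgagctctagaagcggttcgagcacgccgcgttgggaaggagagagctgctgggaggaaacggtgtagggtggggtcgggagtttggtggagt
Cdk6 promoter (chr5:3343643-3343892, plus strand): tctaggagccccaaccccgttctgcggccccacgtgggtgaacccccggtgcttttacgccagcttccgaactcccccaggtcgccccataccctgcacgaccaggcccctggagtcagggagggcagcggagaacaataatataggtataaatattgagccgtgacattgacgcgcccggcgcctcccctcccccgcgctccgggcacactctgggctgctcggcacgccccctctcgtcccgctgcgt
The Mcm5 stretch holds E2F words close together and CCAAT boxes nearer to the start, and the Mki67 stretch holds words of all 4 elements. The Cdk6 stretch holds none of these words.

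Of the 41 shared promoter regions, 34 (82.9%) differed by less than 5 percentile points between the mean of the cKO and the mean of the WT libraries, beside 69.8% of all shared promoter regions. Percentiles leave little room for a difference near the top of a list, where many of these promoters stood. Among promoters at a mean percentile of 90 or more, 20 of 21 members were within 5 points, beside 96.1% of all, and under 90 it was 14 of 20 members, beside 55.4% of all. The median difference (cKO minus WT) was 0.079 points, beside −0.43 points for all 10956 shared promoter regions. Both cKO libraries lay above both WT libraries at 12 of 41 promoters, and both lay below at 11 of 41. Over all shared promoter regions 20.8% lay above and 33.7% lay below. With all lists cut to the same number of peaks (the top 51955 of each), these counts were 20 above and 8 below, beside 34.1% above and 31.5% below for all promoter regions.

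A test was run on all 44820 regions called in the 4 libraries (limma on normal scores of the percentiles, Benjamini-Hochberg adjusted over all of them). It called 0 regions at an adjusted p of 0.05, among the members and among all regions alike, with 10039 regions (22.4%) at an unadjusted p under 0.05. Of the members' 136 shared regions, 17 had an unadjusted p under 0.05. Of these, 1 was a member's own promoter, 1 was the promoter of a neighbouring gene and 15 lay outside promoters. Over all promoter regions the share was 12.1% and over all other regions at genes 25.0%. The lowest adjusted p of limma was 0.0864, for all regions as for the members. With equal list lengths limma called 5028 regions higher and 4907 lower in cKO of 41715 tested, and re-ranking among the shared regions, an alternative chosen after seeing the data, gave 5285 and 5162 of 44820. With 2 libraries per genotype an exact permutation test of a single region cannot give a p below 0.333.

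With equal list lengths 4 member promoters were higher in cKO (Mcm7, Mcm6, Rrm1 and Aurkb) and 0 were lower, beside 6.75% higher and 6.26% lower among 10779 promoter regions. Aurkb did not pass after re-ranking among the shared regions (adjusted p of limma = 0.0529). Outside promoters, 14 member regions were higher and 8 lower with equal list lengths, beside 13.6% higher and 13.5% lower among 21565 such regions. In the following, the first p given for a region is that of limma on the full lists and the second is that with equal list lengths.

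The MCM proteins form the ring-shaped helicase that is loaded at origins and unwinds DNA. Among the 6 Mcm genes, 5 had a promoter that was higher in both cKO libraries than in both WT libraries, and Mcm4 had one that was lower in both. These counts were the same with equal list lengths. Of all shared promoter regions 20.8% were higher in this sense, and 34.1% were with equal list lengths. The Mcm7 promoter (chr5:138170782-138172525, shared with the start of Ap4m1's gene body) had percentiles of 84.7 and 87.2 in WT against 96.3 and 97.6 in cKO. Its difference was 11.1 points, or 0.81 ± 0.12 (SE) on the normal score scale, with an adjusted p of limma of 0.0961 and of 0.0148. The genotypes did not overlap, and the gap was wider than the spread within either pair. The Mcm6 promoter gave 88.8 and 89.7 in WT against 92.9 and 93.3 in cKO (adjusted p of limma = 0.249 and 0.0416). Mcm5 gave 90.2 and 94.9 in WT against 96.4 and 97.0 in cKO (adjusted p of limma = 0.247 and 0.0664). Mcm2 and Mcm3 had differences of 4.18 and 0.981 points and did not pass in either fit. Mcm4, one of the most open promoters of the set, gave 98.5 and 98.7 in WT against 98.2 and 98.3 in cKO, a difference of −0.379 points. A second, small Mcm7 promoter region was called in WT replicate 2 alone, at percentile 21.1.

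The other licensing genes had smaller differences than Mcm2, Mcm5, Mcm6 and Mcm7. Cdc6 and Cdt1, which load the helicase onto origins, were above WT in both cKO libraries by 2.35 and 0.990 points. Cdc45, which joins the helicase when it fires, was below by 0.337 points, at percentiles of 95.7 and 95.7 in WT against 95.6 and 95.1 in cKO. In all, 7 of the 9 shared promoters of this role group lay above WT and 2 lay below. The 7 include the 5 Mcm promoters already counted. Of all shared promoter regions 20.8% lay above and 33.7% below. With equal list lengths 7 of the group lay above and 1 below, beside 34.1% and 31.5% of all. Pcna, the sliding clamp of the polymerases, had percentiles of 98.1 and 98.2 in WT against 98.0 and 98.3 in cKO, so its libraries overlapped. Chaf1a and Chaf1b are subunits of the assembly factor that places replication-coupled histone H3 onto new DNA. Chaf1a overlapped between genotypes, and Chaf1b was lower in both cKO libraries, with a difference of −2.10 points (adjusted p of limma = 0.468 and 0.302).

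The promoters of the enzymes that make deoxynucleotides split. Rrm1 and Rrm2 encode the subunits of ribonucleotide reductase. Rrm1 gave 84.1 and 86.4 in WT against 89.4 and 92.0 in cKO (adjusted p of limma = 0.255 and 0.0334). Rrm2 gave 85.5 and 88.2 in WT against 89.1 and 91.1 in cKO (adjusted p of limma = 0.433 and 0.0646). Both were higher in each cKO library than in each WT library. Tyms, which makes thymidylate, had one of the weakest shared promoters at 45.7 and 49.4 in WT against 37.5 and 43.9 in cKO (adjusted p of limma = 0.427 and 0.436). The promoter of Tk1, the thymidine kinase of S phase, was called at percentiles of 27.7 and 41.8 in WT, was not called in cKO replicate 1 and stood at 11.9 in cKO replicate 2.

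Of the members' 41 shared promoters, those of the D-type cyclins Ccnd1 and Ccnd3 had the largest differences. The Ccnd1 promoter (chr7:144939517-144940542) gave 14.5 and 63.1 in WT against 81.3 and 79.8 in cKO. The difference of 41.7 points came with 1.22 ± 0.48 (SE) on the normal score scale and did not pass in either fit (adjusted p of limma = 0.241 and 0.125). The WT libraries differed from each other by more than the cKO libraries from WT replicate 2: in WT replicate 1 the region held 2 separate peaks of 237 and 376 bp, where each other library had 1 peak of 919 to 1026 bp. The difference was 17.4 points without WT replicate 1, 66.1 points without WT replicate 2 and 27.5 points when the areas of all peaks in a region were summed.

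Ccnd2 had more calls in cKO than in WT at and upstream of its start. Its promoter region at the start site (chr6:127150734-127151203) was not called in WT replicate 1, stood at 13.0 in WT replicate 2 and at 43.1 and 55.4 in cKO. The next region, 714 bp upstream (chr6:127151523-127152025), was the gained promoter region, at 20.5 and 39.2 in cKO. A region 1471 bp upstream, just outside the promoter stretch, was not called in WT replicate 1 and gave 24.0 in WT replicate 2 and 68.3 and 75.8 in cKO. A gained region followed 3951 bp upstream (chr6:127154721-127155302), at 23.2 and 38.2 in cKO. WT replicate 1 thus had no peak in this stretch, and the peaks of WT replicate 2 were below those of both cKO libraries.

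Ccnd3 has 3 promoter regions, and they did not move together. The most upstream one (chr17:47504803-47505319) gave 58.4 and 65.2 in WT against 17.3 and 48.8 in cKO, a difference of −28.7 points (adjusted p of limma = 0.257 and 0.105). This difference was −13.0 points without cKO replicate 1 and −44.5 points without cKO replicate 2. The other 2 Ccnd3 promoter regions differed by 1.47 and 0.119 points, with overlapping libraries. Ccne1, Ccne2, Ccna2 and Ccnb2, the E-, A- and B-type cyclins of S phase and mitosis, overlapped between genotypes, with differences from −2.30 to 3.07 points. Ccnb1 was lower in both cKO libraries, at 87.6 and 89.2 in WT against 84.0 and 86.2 in cKO (adjusted p of limma = 0.434 and 0.176).

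The 4 kinase genes and their activator Cdc25a had promoters whose libraries overlapped in every case. Cdk6 was the weakest of them at 73.8 and 79.7 in WT against 75.0 and 83.7 in cKO. Among the transcription factors, E2f3 had the most open promoter of all members, at 99.2 and 99.9 in WT against 99.9 and 99.9 in cKO. E2f2 had the weakest: not called in WT replicate 1, 10.9 in WT replicate 2 and 3.75 and 15.4 in cKO. E2f1, Foxm1 and Mybl2 were lower in both cKO libraries, by small amounts of −0.979, −1.42 and −1.23 points, and none passed in either fit. Of the Mki67 promoter, the gene of the proliferation marker Ki-67, the percentiles were 97.3 and 98.0 in WT against 95.7 and 95.5 in cKO (adjusted p of limma = 0.224 and 0.0630).

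Among the mitotic genes, Bub1 and Aurkb had the wider promoter differences, of 10.9 and 6.99 points. Bub1, a kinase of the spindle checkpoint, had a weak promoter that was higher in cKO, at 36.7 and 51.5 in WT against 53.9 and 56.1 in cKO (adjusted p of limma = 0.375 and 0.0610). Aurkb, the kinase of the chromosomal passenger complex, gave 57.3 and 60.8 in WT against 63.8 and 68.2 in cKO (adjusted p of limma = 0.380 and 0.0490). Cdc20, which activates the anaphase-promoting complex, was lower in both cKO libraries by 0.783 points. Aurka, Birc5, Plk1 and Top2a overlapped between the genotypes.

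**Figure D2:**
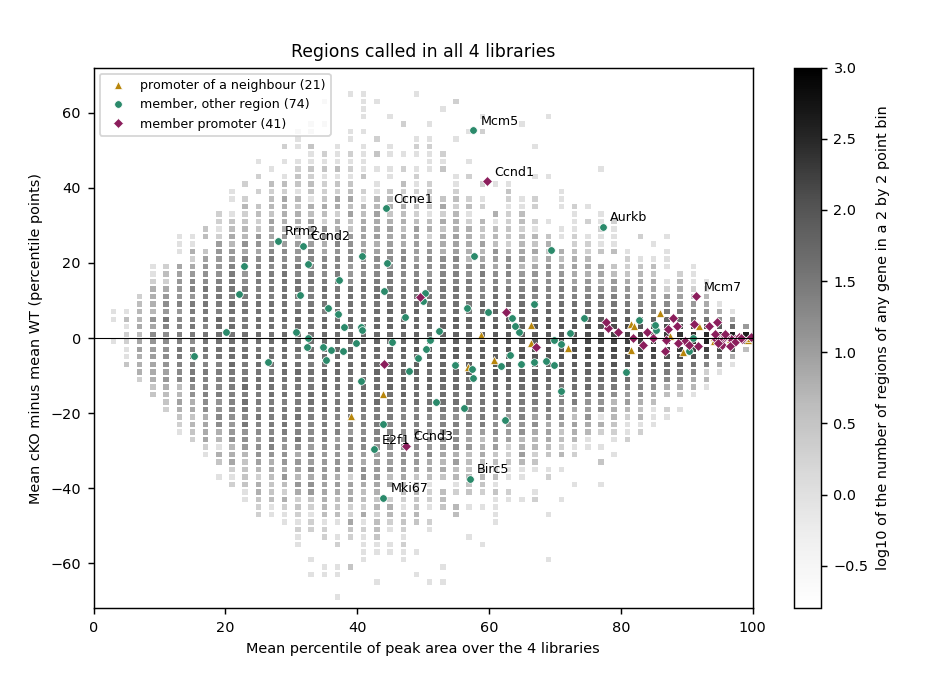
Mean percentile over the 4 libraries (x axis) against mean cKO minus mean WT (y axis, percentile points) for regions called in all 4 libraries. Grey squares are bins of all 44820 regions of any gene or none, darker for more regions (log scale), and coloured points are the members' 41 promoters, 74 other regions and 21 promoters of neighbouring genes. Promoters crowd at the right near 0, with Mcm7 11.1 points above it, and Mcm5, Ccnd1 and Mki67 stand farthest from 0.

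Away from promoters the 42 genes had 132 regions, and here calls differed more often. In all 4 libraries 74 regions (56.1%) were called, 4 (3.03%) were gained and 14 (10.6%) were lost. Over the 41490 such regions of all protein-coding genes 56.8% were called in all 4, 3.99% were gained and 8.81% were lost, so that the members' shares were near the background. The median difference of the 74 shared regions was 0.76 points, beside −1.91 points for all 23572. Both cKO libraries lay above both WT libraries at 24 and below at 20 of the 74, beside 22.0% and 35.7% of all. With equal list lengths the counts were 30 above and 18 below, beside 37.3% and 37.3%.

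**Figure D3:**
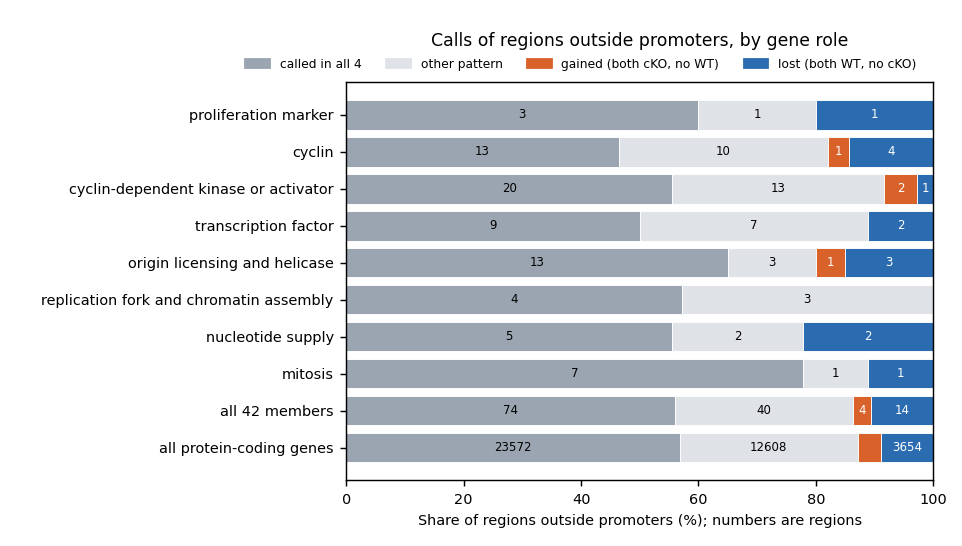
Share of regions outside promoters (x axis, %) that were called in all 4 libraries, gained in cKO, lost in cKO or called in another pattern, for each role group, for all 42 members and for all protein-coding genes. Numbers in the bars are regions. The bar of all members (74, 40, 4 and 14 regions) is close to that of all genes.

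In all, 15 of the 42 genes had a gained or lost region and 27 had none, and no gene had both kinds. That share (35.7%) compares with 30.3% of the 16367 protein-coding genes with a region, which had a median of 3 regions each against 4 for the members. Of those 16367 genes only 2.58% had both kinds. A gained region was found at 9.52% of the members beside 11.1% of all, and a lost one at 26.2% beside 21.8%. Gained regions lay at Ccnd2, Cdk4, Cdk6 and Mcm5. Lost regions lay at Birc5, Ccnd1, Ccnd3, Cdc25a, Cdc45, Cdc6, E2f1, Foxm1, Mcm7, Mki67 and Tk1. The lost regions outside promoters were narrow and low: they had a median percentile of 22.9 and a median width of 330 bp, beside 50.4 and 579 bp for the members' shared regions outside promoters. Of the 15 lost regions, the one at a neighbour's promoter included, 10 were still lost with equal list lengths. With only peaks larger than the list median 0 were lost, but their height fixed this, as their mean percentiles reached at most 47.7. Of the 5 gained regions, 4 were still gained with equal list lengths. Among the peaks above the median 1 was gained, the only one whose peaks in both cKO libraries were that high, so this filter restates peak height.

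Mcm5 had the largest difference of the members' shared regions, and it lay upstream of the gene. The region 4698 bp upstream of its start (chr8:75104176-75105567) gave 25.4 and 34.5 in WT against 81.9 and 88.7 in cKO. The difference was 55.4 points, or 1.59 ± 0.17 (SE) on the normal score scale (adjusted p of limma = 0.0864 and 0.0139). The peak was also wider, at 393 and 429 bp in WT and 1143 and 1392 bp in cKO. Next to it, farther upstream, was a gained region of 6418 bp (chr8:75097501-75103918) that overlaps the body of Hmox1, the gene of heme oxygenase, and reached percentiles of 77.7 and 99.6 in cKO. It was the only gained region of the members with peaks above the median area in both cKO libraries. A region in a Mcm5 intron (chr8:75119378-75120187) gave 40.8 and 52.9 in WT against 67.3 and 70.0 in cKO (adjusted p of limma = 0.146 and 0.0165). The Mcm5 promoter and the 2 shared regions outside it thus lay above WT in both cKO libraries. The promoter passed in neither fit, and the gained region had no WT peak to compare.

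Tk1 showed the reverse, with lower or absent peaks on either side of its start. Regions 2169 and 3938 bp upstream (chr11:117828011-117828512 and chr11:117829880-117830180) were lost, at 20.4 and 27.0 and at 7.97 and 25.6 in WT. Between them a shared region (chr11:117828791-117829382) gave 52.0 and 58.8 in WT against 24.7 and 40.4 in cKO (adjusted p of limma = 0.181 and 0.0233). These upstream regions lie in the body of the neighbouring gene Afmid. A shared region at the Afmid start, inside Tk1, gave 46.1 and 53.0 in WT against 18.2 and 39.1 in cKO (adjusted p of limma = 0.256 and 0.0628). The promoter of another neighbour, Syngr2, downstream of Tk1 (chr11:117809393-117809929), was lost as well, at 13.3 and 27.4 in WT. Not all of the window went this way: the region 6353 bp upstream was higher in both cKO libraries by 6.92 points.

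**Figure D4:**
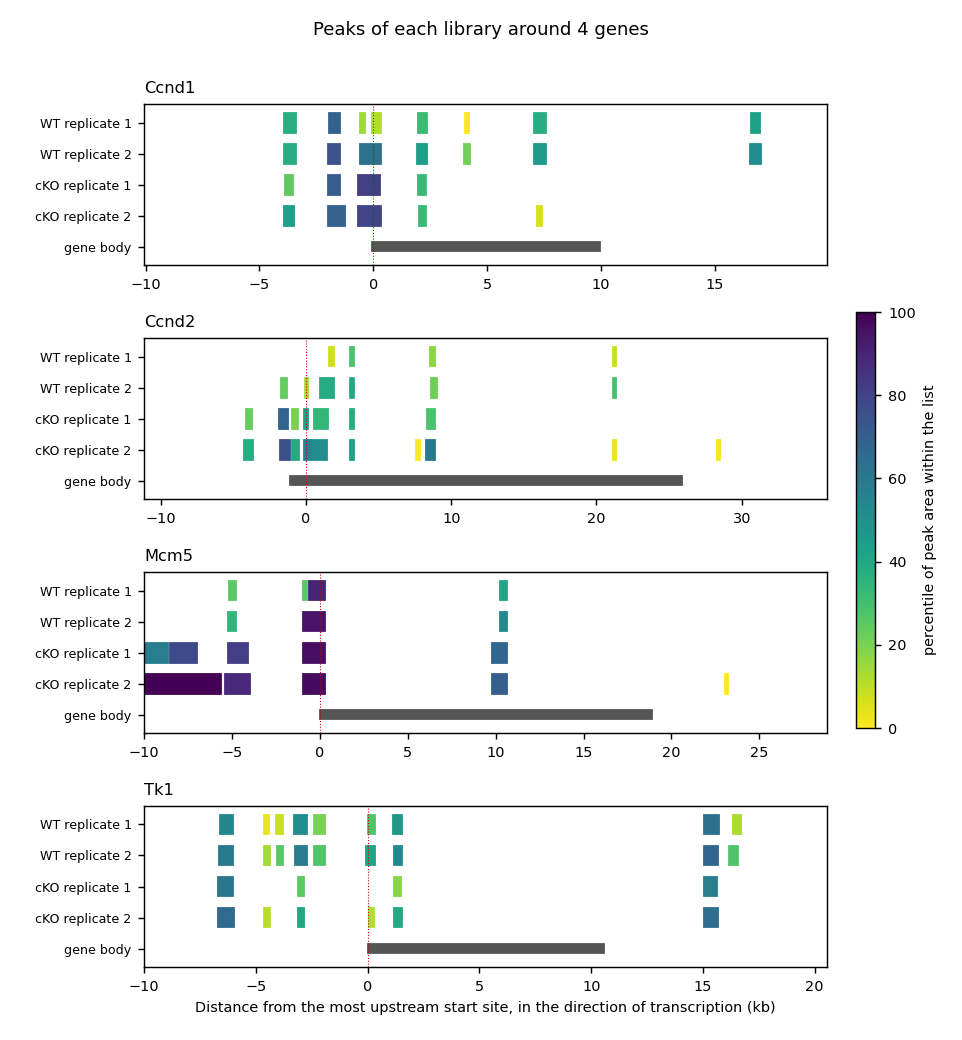
Peaks of each library (rows) around Ccnd1, Ccnd2, Mcm5 and Tk1 against the distance from the most upstream annotated start site in kb, in the direction of transcription, coloured by percentile of peak area. The dotted line is the start site and the grey bar is the gene body. At Ccnd2 and upstream of Mcm5 the cKO rows hold darker or additional peaks, and at Tk1 and downstream of Ccnd1 peaks of the WT rows are absent from the cKO rows.

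The sequences around 3 of these summits are shown, as the most raised, a lost and a gained region. Each is 150 bases around the highest point of the region's top-ranked peak, on the plus strand of GRCm38.p6, with capitals for words of macrophage factors on either strand: AP-1 (TGANTCA), PU.1 (GAGGAA) and C/EBP (TTGCNNAA).
Mcm5 region (chr8:75104536-75104685, plus strand): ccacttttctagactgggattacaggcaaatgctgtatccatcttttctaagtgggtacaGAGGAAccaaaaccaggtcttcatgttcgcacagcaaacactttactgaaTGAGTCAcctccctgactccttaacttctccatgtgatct
Tk1 region (chr11:117828000-117828149, plus strand): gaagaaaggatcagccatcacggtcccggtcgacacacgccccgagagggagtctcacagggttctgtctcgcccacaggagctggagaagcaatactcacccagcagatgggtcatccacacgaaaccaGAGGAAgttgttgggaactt
Ccnd2 region (chr6:127154964-127155113, plus strand): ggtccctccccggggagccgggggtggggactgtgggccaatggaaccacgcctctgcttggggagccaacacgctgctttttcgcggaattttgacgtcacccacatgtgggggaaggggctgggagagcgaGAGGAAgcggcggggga
The Mcm5 window holds an AP-1 and a PU.1 word, and the others hold a PU.1 word each. In the windows of all 71243 regions an AP-1 word was found in 14.6%, a PU.1 word in 34.9% and a C/EBP word in 9.73%. In the members' 132 regions outside promoters these shares were 10.6%, 37.9% and 6.82%. Of the 14 lost ones, 8 had a PU.1 word, 1 a C/EBP word and 0 an AP-1 word, and of the 4 gained ones 1 had a PU.1 word.

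At Mki67 the promoter kept a high percentile, though it too was lower in both cKO libraries. Of the 3 shared regions outside it, 2 lay below WT in both cKO libraries. An exonic region (chr7:135705047-135706490) gave 49.1 and 81.3 in WT against 14.2 and 31.3 in cKO, a difference of −42.5 points (adjusted p of limma = 0.182 and 0.0596). It was −27.4 points without WT replicate 2 and −23.2 points when peak areas were summed. A second exonic region (chr7:135699293-135699676) was lost, at 23.5 and 33.8 in WT. Ki-67 coats mitotic chromosomes, and its gene is read in dividing cells.

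At the D-type cyclins and their kinases, changes away from the promoter went both ways. Ccnd1 lost an intronic region (chr7:144935638-144935904, at 0.335 and 21.3 in WT) and a region 16784 bp downstream of its start (chr7:144922865-144923305, at 43.2 and 52.2 in WT) in the body of LTO1. So the gene with the largest difference of a shared promoter had its lost regions elsewhere in the window. A shared intronic Ccnd2 region (chr6:127142019-127142762) gave 17.5 and 21.6 in WT against 28.8 and 59.5 in cKO, a difference of 24.6 points (adjusted p of limma = 0.256 and 0.0738). Without cKO replicate 2 that difference was 9.21 points.

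Ccnd3 lost an intronic region (chr17:47567248-47567616, at 23.2 and 25.9 in WT) and one in the body of its neighbour Bysl (chr17:47609236-47609523, at 1.11 and 20.2 in WT). A further intronic Ccnd3 region (chr17:47523145-47523933) was shared and lower in cKO, at 73.6 and 73.0 in WT against 48.4 and 54.6 in cKO (adjusted p of limma = 0.112 and 0.0235). Of the 5 shared Ccnd3 regions outside promoters, 2 lay below WT and 2 above it in both cKO libraries. The higher ones, at chr17:47511045-47511579 and chr17:47599897-47600433, differed by 9.07 and 9.86 points. Their adjusted p of limma was 0.351 and 0.0473 for the first, and 0.283 and 0.0359 for the other. Cdk4, the partner of the D-type cyclins, had a gained region 9360 bp downstream of its start (chr10:127072149-127073778), at 25.5 and 65.6 in cKO, in no protein-coding gene. Cdk6 had a weak gained intronic region (chr5:3425910-3426137), at 3.26 and 11.6 in cKO. Cdk6 is a long gene and held 25 regions of differing behaviour. One of them, 157414 bp into the gene (chr5:3501248-3502205), gave 55.1 and 60.4 in WT against 78.1 and 84.4 in cKO (adjusted p of limma = 0.113 and 0.0150), and another, 147108 bp in, gave 57.8 and 63.2 in WT against 36.6 and 50.5 in cKO (adjusted p of limma = 0.227 and 0.0378).

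The remaining lost regions were single peaks at genes of replication and mitosis. Cdc45 lost an intronic region (chr16:18789028-18789487) at 36.1 and 42.2 in WT, and Cdc6 one (chr11:98915737-98916010) at 11.8 and 32.6. Mcm7, whose promoter was higher in cKO, lost a region 13752 bp downstream of its start (chr5:138157911-138158221) at 35.4 and 43.3. Cdc25a, the phosphatase that activates the kinases, lost a downstream region (chr9:109897993-109898372) at 38.0 and 39.2. Weak peaks were lost upstream of Birc5 (chr11:117847537-117847885, at 6.33 and 14.5), upstream of E2f1 (chr2:154574259-154574479, at 5.07 and 14.3) and downstream of Foxm1 (chr6:128379735-128380004, at 6.55 and 28.4).

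Other large differences were at shared flanking regions. Upstream of Aurkb (chr11:69039867-69041406) the percentiles were 57.7 and 67.3 in WT against 92.3 and 92.1 in cKO (difference 29.7 points, adjusted p of limma = 0.0864 and 0.0139), and the difference was 8.97 points when peak areas were summed, since both WT libraries had 2 peaks there. Downstream of Ccne1 (chr7:38089927-38090573) they were 24.0 and 30.1 in WT against 55.0 and 68.4 in cKO (difference 34.6 points, adjusted p of limma = 0.108 and 0.0159). Both regions lay in no protein-coding gene body, and in both the genotypes were apart by more than their replicates.

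In the other direction, a region in the body of Tmem235 downstream of Birc5 (chr11:117864635-117865218) gave 73.7 and 77.9 in WT against 29.8 and 46.9 in cKO (difference −37.4 points, adjusted p of limma = 0.110 and 0.0155). Downstream of E2f1, in Necab3 and Actl10 (chr2:154552264-154553019), the values were 49.1 and 65.7 in WT against 27.3 and 28.3 in cKO (difference −29.6 points, adjusted p of limma = 0.126 and 0.0478). A region 1311 bp upstream of Rrm2 (chr12:24706706-24707154) gave 0.108 and 29.9 in WT against 32.1 and 49.7 in cKO. Its difference of 25.9 points was 11.0 points without WT replicate 1 and 40.8 points without WT replicate 2, and it was not shared by all 4 lists of equal length.

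A wider list of 83 genes of replication, nucleotide supply, mitosis and the E2F and MuvB complexes, none of them among the 42, was looked at in the same way. Of their 89 promoter regions, 88 were called in all 4 libraries, 0 were gained and 1, that of Gmpr, was lost. Both cKO libraries lay above both WT libraries at 24 (27.3%) and below at 29 (33.0%) of the 88, beside 20.8% and 33.7% of all shared promoter regions. Outside promoters 17 of 188 regions (9.04%) were gained, beside 3.99% of all such regions, and 17 (9.04%) were lost, beside 8.81%. Of these regions 2 were gained when only peaks above the median area were used, and 34 when cKO replicate 1 was left out. Over all regions the gained ones went from 2653 to 1349 and to 6511 in these settings. Of the 90 shared regions outside promoters 23 (25.6%) lay above and 36 (40.0%) below, beside 22.0% and 35.7% of all.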

How the data were processed

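ATAC-seq libraries of WT and cKO BMDMs (2 per genotype) were grouped by their titles. Per the labels, the authors aligned reads to mm10 with Bowtie2 2.5.1 and called peaks with Genrich, in each library separately. The study's methods state default settings, under which Genrich keeps PCR duplicates and does not centre intervals on cut sites. Other read filters are not given in the sources used here, and the depth is unknown. The deposited signal column is the area of each peak above Genrich's threshold, with a floor of 200, and was used as a percentile within its list. The deposited score and −log10 p-value columns entered no comparison.

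Peaks that shared 1 bp were merged into regions, with the result of bedtools 2.31.1, and assigned with GENCODE M21 basic (protein-coding genes, 10 kb flanks). A region's value was its highest peak. Regions called in all 4 libraries were tested with limma 3.58.1 (R 4.3.3) on normal scores, with genotype as the only term, and were checked on simulated data. P-values cover the spread between these libraries, whose mice the labels do not name. Coordinates are 1-based.

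The 42 genes, the lists and the tests were chosen with earlier results of these data known. Regions with values were every gained or lost region, the 10 largest differences and the 3 highest and 3 lowest promoters. Promoters not called in all 4 were also given. Of the regions that passed limma with equal list lengths, the promoters and only some of the others were given. The study's read-based comparison could not be run on peak lists. The closing section gives 14 alternative settings.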

Additional observations from a re-analysis of the deposited data

How the results depend on the processing

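Percentiles carry list length, and limma's calls moved with the scale of the lists. With equal list lengths limma called 4 member promoters higher and 0 lower in cKO, and 14 other regions higher and 8 lower. With ranks among shared regions (chosen after seeing the data) it called 3 and 0, and 13 and 8. Testing regions called in at least 2 libraries gave 1 and 0, and 6 and 12, beside 2685 higher and 5386 lower of all 61857 tested. There a library without a call was given its lowest score, so gained and lost regions were tested on that filled-in value. Using only peaks above the median area gave 1 and 0, and 2 and 2, beside 888 higher and 1835 lower of all 22934 tested. The full lists, summed areas, percentile points and the replicate block gave 0 each.

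Equal list lengths left 3 promoters gained and 1 lost, and placed 20 promoters above and 8 below WT, as did ranks among shared regions (20 and 8). Peaks above the median area left 0 promoters gained and 1 lost, 7 other regions gained and 3 lost, and 8 above and 10 below. Calls by 50% cover left 2 promoters and 7 other regions gained. Gene bodies without flanks held 1 gained and 5 lost other regions, with 11 above and 10 below, and classing regions by their centre left 7 promoters above. The last settings count fewer or other regions by construction.

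Leaving out 1 library at a time gave 1 to 3 gained and 0 to 2 lost promoters, 4 to 11 gained and 14 to 26 lost other regions. With a library left out, the rules for gained, lost, above and below are easier to meet for any region. Over all regions gained ones went from 2653 to between 2756 and 6511, and lost ones from 5164 to between 5449 and 10212. Gained other regions numbered 11 without WT replicate 2 or cKO replicate 1, and lost ones 24 without WT replicate 1 and 26 without cKO replicate 2. Promoters above WT numbered 12 to 20 and below 12 to 20, and other regions 25 to 40 above and 20 to 36 below. Limma calls are not given for these settings, since with 1 library left in a genotype its spread was assumed to be that of the other.

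The median difference of the promoters ranged from −0.34 to 0.50 points and that of the other regions from −2.82 to 3.52 points over these settings. The replicate numbers marked no stated day or mouse. Replicate differences (1 minus 2) of WT and cKO correlated with r = 0.219 across 44820 regions. The replicate block called 0 member regions, as the fit without it. Read depth is unknown, so no counting error could be given for a peak.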

Other observations

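In the wider list of cell cycle genes, some flanking regions differed more than most of those of the 42 genes. These were picked after their values were seen. Downstream of Rfc5, a subunit of the clamp loader, a region in the body of Wsb2 (chr5:117374658-117375329) had percentiles of 59.6 and 65.6 in WT and of 5.45 and 12.9 in cKO, and the regions on either side of it were lower in both cKO libraries as well. Downstream of Tfdp2, a dimer partner of E2F proteins, a gained region (chr9:96329969-96332406) reached 94.9 and 97.8 in cKO, and a second one lay next to it in the body of Atp1b3. Dck, the deoxycytidine kinase of nucleotide salvage, had 4 gained and no lost regions, at percentiles of 13.9 to 37.1. In an intron of Lig1, the ligase that joins Okazaki fragments, a shared region gave 51.3 and 53.4 in WT and 82.5 and 82.7 in cKO.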
